A study of Sus scrofa with 24 samples.

Results

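The MHC class II presentation genes of the pig are the swine leukocyte antigen (SLA) genes that encode the class II heterodimers and their peptide editors, with the invariant chain CD74 and the transactivator CIITA. They were taken as a list of 10 names, and each was measured by the probe set whose only gene symbol was that name. A probe set was found for 8 of the 10: SLA-DRA, SLA-DRB1, SLA-DQA1, SLA-DQB1, SLA-DMA, SLA-DMB, SLA-DOA and SLA-DOB, 1 probe set each, among 12365 genes with such a probe set and 27558 probe sets in all. CD74 and CIITA had no probe set of their own and are not analysed here.

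Class II molecules are pairs of an alpha and a beta chain on the surface of cells that include dendritic cells, macrophages and B cells. They show peptides from engulfed material to CD4+ T cells. Which cells carried them in this tissue was not measured. The DR and DQ pairs reach the cell surface, whereas the DM and DO pairs stay in endosomes, where DM exchanges the invariant chain remnant for peptide and DO restrains DM. In the female genital tract, class II positive cells lie in and beneath the epithelium that meets semen.

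The study asked what mating, or seminal plasma alone, does to transcription in the sow's reproductive tract. The tissue was the utero-tubal junction (UTJ), the narrow passage between uterine horn and oviduct where boar spermatozoa are stored, taken from Swedish Landrace sows in oestrus within 24 h of the procedure and hybridised to a whole-transcript porcine array. The 24 arrays carry 3 labels with 8 arrays each: mated with a boar, infused with 50 ml of sperm-free seminal plasma (SP), and control, infused with 50 ml of the extender BTS. Per the study's methods 4 sows were used per group and both UTJs of each were sampled, but the labels do not tell which arrays came from 1 animal, so the 8 arrays of a group are not 8 independent animals and the p-values here may be too small, by an amount that was not measured. The control is a uterus that received fluid, so both other groups are set against extender and not against an untouched tract.

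The assignment of arrays to conditions rests on the labels alone, since no gene was targeted that could check them. Fold changes tabulated with the study follow another assignment of the 3 labels more closely than this one, so a direction given here holds for the arrays labelled mated, SP-infused and control, and not for the conditions as such. Differences within a label, and genes that vary together, do not depend on which condition each label stands for. This holds only if labels were exchanged as whole groups, which was not tested.

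Values are log2 signals after robust multi-array average (RMA) processing, so a difference of 1 is a doubling. Array medians lay between 5.75 and 5.87 in the mated group, 5.80 and 5.90 in the SP-infused group and 5.80 and 5.99 in the control group, and no array duplicated another. Both epithelium and muscle were present, with EPCAM averaging 9.85 and the smooth muscle actin ACTA2 averaging 11.95. Because the tissue is a mixture, fewer class II positive cells and less class II RNA per cell cannot be told apart.

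None of the 8 genes passed the test in any of the 3 comparisons, at an adjusted p of 0.05 over all 27558 probe sets in limma's moderated test, where 0.0% of all probe sets passed in each. The widest contrast was SLA-DRA in the mated against the control group, which was higher by 0.41 on the log2 scale (SE 0.18, adjusted p = 0.408). In mated against control arrays 7 of the 8 genes had a positive log2 difference, against 38.9% of all probe sets. The median of the 8 was 0.176 against -0.0472 over all probe sets. In SP-infused against control arrays 2 of 8 were positive, against 39.2% of all probe sets. The median there was -0.0358 against -0.0384 over all probe sets. These counts describe 8 genes that vary together between arrays and are not 8 separate observations.

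SLA-DRA encodes the nearly invariant alpha chain of the DR molecule. Its log2 signal spanned 9.85 to 11.02 in the mated group (median 10.19), 9.48 to 10.35 in the SP-infused group (median 10.05) and 9.27 to 10.48 in the control group (median 9.91). The ranges overlapped, although 7 of 8 mated arrays lay above the control median and 2 lay above the highest control array. A gap in its values was noted after they were seen: SP-infused replicate 2 and control replicates 1, 2 and 4 stood at 9.48 or lower, and the other 20 arrays at 9.85 or higher. The means were 10.25 ± 0.37 in the mated group, 10.05 ± 0.29 in the SP-infused group and 9.84 ± 0.45 in the control group (SD, n = 8 each). The difference of 0.41 between mated and control arrays, a fold of 1.32, had a 95% interval of 0.04 to 0.77, and a two-sided exact permutation test of the 2 means, added after seeing the data, gave an unadjusted p of 0.0695. It was the only gene of the 8 to reach an unadjusted limma p under 0.05 in mated against control arrays, where 11.4% of all probe sets did so, 2.88% with a higher and 8.52% with a lower signal in the mated group. Its unadjusted p was no longer under 0.05 when mated replicate 3 or 5, or control replicate 1, 2 or 4, was left out, with differences of 0.30, 0.37, 0.34, 0.34 and 0.32 in that order. In SP-infused against control arrays the difference was 0.21 (95% interval -0.16 to 0.58, adjusted p = 0.893), and in mated against SP-infused arrays it was 0.20 (adjusted p = 0.998).

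SLA-DRB1 encodes the polymorphic beta chain that pairs with SLA-DRA. Its signal spanned 5.74 to 7.32 in the mated group (median 6.62), 5.73 to 7.24 in the SP-infused group (median 6.74) and 5.62 to 7.59 in the control group (median 6.72), ranges that covered each other almost completely. It differed by -0.12 in mated against control arrays (95% interval -0.68 to 0.44, adjusted p = 0.884) and by -0.09 in SP-infused against control arrays (adjusted p = 0.961). SLA-DRB1 had the widest spread of the 8, with a residual SD of 0.58, larger than that of 93.4% of all probe sets. Its arrays fell on both sides of an empty interval, an observation made after its values were seen: 6 arrays stood at 6.00 or lower and 18 at 6.37 or higher. The 6 low arrays were mated replicates 5 and 6, SP-infused replicates 3 and 4 and control replicates 2 and 4, so each label held 2. The RefSeq gene order of the assembly Sscrofa11.1 was used here for neighbours only. In it DRB pseudogenes and the pseudogene SLA-DQB2 lie among the DR and DQ genes. The SLA-DRB1 and SLA-DQB1 signals are uncertain wherever probes match such near copies or differ from the alleles of a sow.

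**Figure D1:**
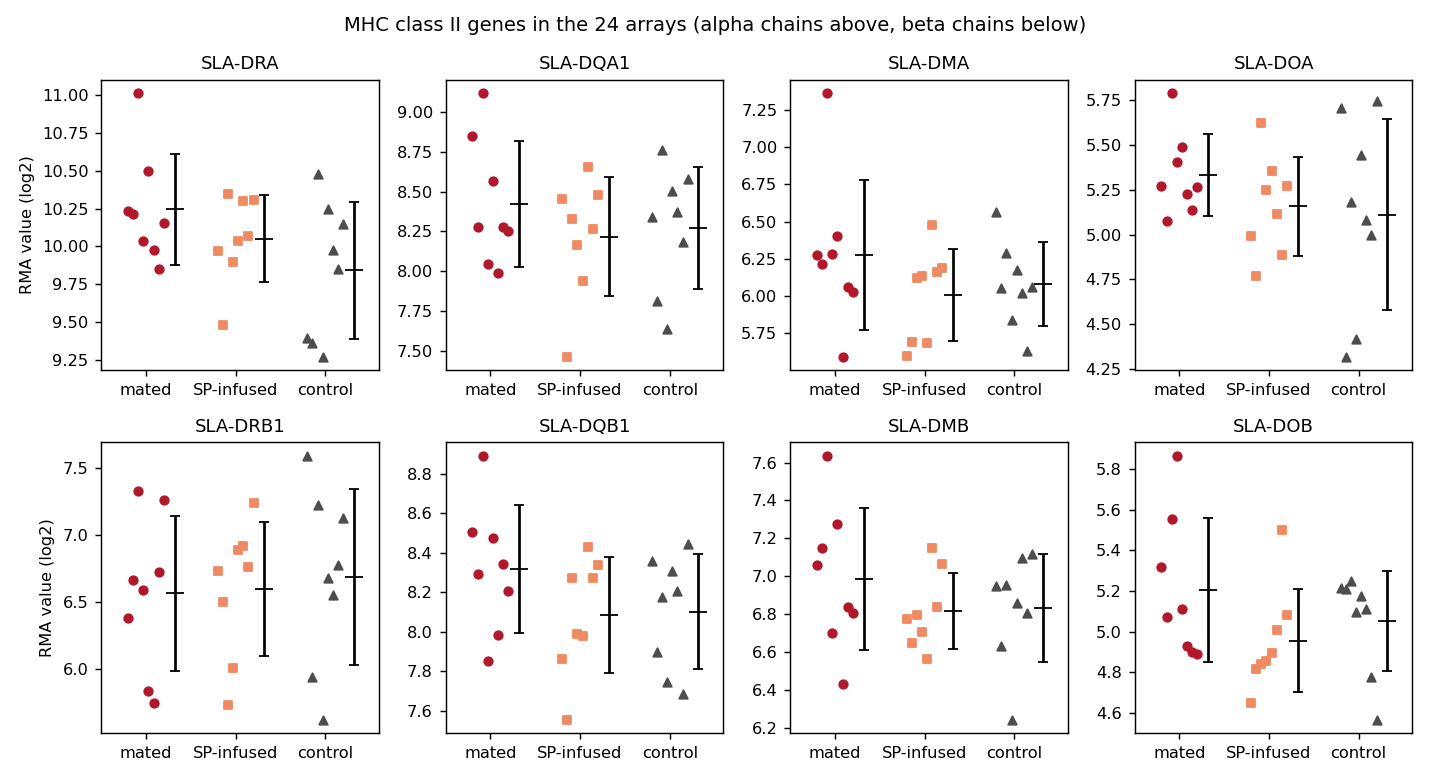
RMA log2 signal (vertical axis) of the 8 class II genes, alpha chains above and beta chains below, in the arrays labelled mated, SP-infused and control; each point is 1 array and the bar is the mean ± SD over 8 arrays. The 3 groups overlap in every panel, and SLA-DRA has the widest offset, with means of 10.25, 10.05 and 9.84.

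The DQ chains differed less than SLA-DRA between mated and control arrays. SLA-DQA1, its alpha chain, spanned 7.99 to 9.12 in the mated group (median 8.28), 7.46 to 8.66 in the SP-infused group (median 8.30) and 7.63 to 8.76 in the control group (median 8.36). SLA-DQB1, its beta chain, spanned 7.85 to 8.89 in the mated group (median 8.32), 7.56 to 8.43 in the SP-infused group (median 8.13) and 7.69 to 8.45 in the control group (median 8.19). The groups overlapped for both chains, and the order of the medians was not the same for the alpha as for the beta chain. In mated against control arrays the log2 difference was 0.15 for SLA-DQA1 (95% interval -0.23 to 0.53, adjusted p = 0.769) and 0.22 for SLA-DQB1 (95% interval -0.09 to 0.52, adjusted p = 0.577). Without mated replicate 3 these were 0.05 for SLA-DQA1 and 0.13 for SLA-DQB1, and for SLA-DQA1 the value was also 0.06 to 0.09 without mated replicate 1 or without control replicate 2 or 4. In SP-infused against control arrays it was -0.06 for SLA-DQA1 (95% interval -0.43 to 0.32) and -0.02 for SLA-DQB1 (95% interval -0.32 to 0.29).

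The peptide editor DM followed the same outline. SLA-DMA spanned 5.59 to 7.36 in the mated group (median 6.25), 5.60 to 6.48 in the SP-infused group (median 6.13) and 5.63 to 6.56 in the control group (median 6.06). The highest mated value, 7.36 in replicate 3, stood apart from the other mated arrays. SLA-DMB spanned 6.43 to 7.64 in the mated group (median 6.95), 6.56 to 7.15 in the SP-infused group (median 6.79) and 6.24 to 7.12 in the control group (median 6.90). Mated against control, the log2 difference was 0.20 for SLA-DMA (95% interval -0.17 to 0.57, adjusted p = 0.685) and 0.15 for SLA-DMB (95% interval -0.14 to 0.45, adjusted p = 0.691). Without mated replicate 3 these differences were 0.04 for SLA-DMA and 0.06 for SLA-DMB, and for SLA-DMB the value was 0.07 without control replicate 4 and 0.23 without mated replicate 6. SP-infused against control, they were -0.07 for SLA-DMA and -0.02 for SLA-DMB.

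The DO chains, which restrain DM, overlapped between the groups as well. SLA-DOA spanned 5.07 to 5.79 in the mated group (median 5.27), 4.77 to 5.62 in the SP-infused group (median 5.18) and 4.32 to 5.74 in the control group (median 5.13). Its control range was stretched downwards by control replicates 2 and 4, which stood at 4.42 or lower while every other array stood at 4.77 or higher. SLA-DOB, whose human and mouse counterparts are made mainly in B cells, spanned 4.89 to 5.87 in the mated group (median 5.09), 4.65 to 5.50 in the SP-infused group (median 4.88) and 4.57 to 5.25 in the control group (median 5.15). Mated against control, the log2 difference was 0.22 for SLA-DOA (95% interval -0.15 to 0.58, adjusted p = 0.644) and 0.15 for SLA-DOB (95% interval -0.14 to 0.44, adjusted p = 0.686). The SLA-DOA value was 0.11 without control replicate 2 and 0.12 without control replicate 4, and the SLA-DOB value was 0.06 without mated replicate 4 and 0.08 without control replicate 8.

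Set against each other, mated and SP-infused arrays again differed in the positive direction for 7 of the 8 genes, against 46.3% of all probe sets. The median log2 difference was 0.20 against -0.0123 over all probe sets. This comparison shares the mated arrays with the comparison against control and is not a second observation. SLA-DOB had 8 of 8 mated arrays above the SP-infused median, the lowest at 4.89 against 4.88, and 2 above the highest SP-infused array. The SLA-DOB difference was 0.25 (95% interval -0.04 to 0.54, adjusted p = 0.998). SLA-DMA differed by 0.27 (95% interval -0.10 to 0.64) and SLA-DRB1, the exception in sign, by -0.03. Without mated replicate 3 the SLA-DMA value was 0.12 and that of SLA-DRA 0.09, and without mated replicate 4 the SLA-DOB value was 0.15. None of the 8 reached an unadjusted limma p under 0.05 in this comparison, against 3.34% of all probe sets (1.52% higher and 1.82% lower in the mated group). The same count was 0 of 8 in SP-infused against control arrays, against 5.15% of all probe sets (1.4% higher and 3.76% lower in the SP-infused group).

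**Figure D2:**
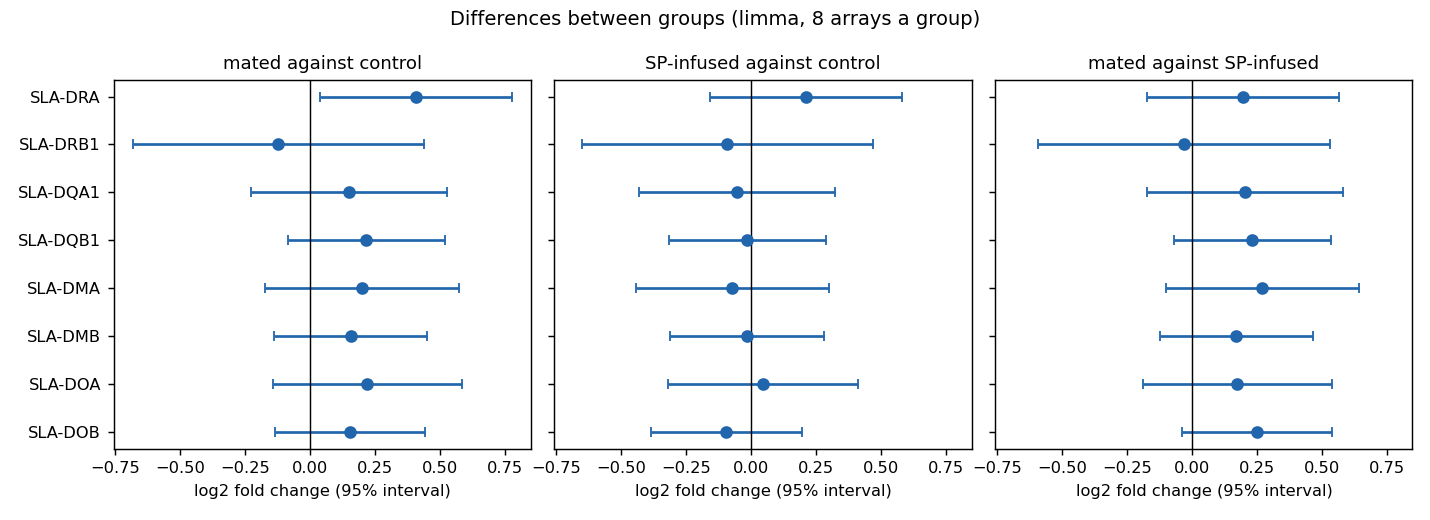
Log2 difference between groups (horizontal axis) with its 95% interval for each of the 8 class II genes, with 1 panel for each of the 3 comparisons between labels. The interval of SLA-DRA in mated against control arrays runs from 0.04 to 0.77 and is the only 1 of the 24 that leaves out 0, before adjustment over all probe sets.

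The counts over all probe sets moved with the scaling of the arrays. Over the 8 alternatives that kept all arrays, the median of the 8 class II genes in mated against control arrays lay between 0.176 and 0.237. Of these, only rescaling or weighting the arrays could move it from 0.176. It was 0.237 with equal array medians, 0.224 after cyclic loess, 0.216 after quantile scaling and 0.208 with array weights. In mated against control arrays 793 probe sets were higher and 2349 lower at an unadjusted p under 0.05 in the deposited scaling, against 1543 higher and 1154 lower once the array medians were made equal and 1304 higher and 1437 lower after cyclic loess. In SP-infused against control arrays 385 were higher and 1035 lower as deposited, against 611 higher and 675 lower with equal medians. In mated against SP-infused arrays 419 were higher and 501 lower as deposited, against 696 higher and 331 lower with equal medians. SLA-DRA alone of the 8 stayed under the unadjusted limma level in mated against control arrays under each of them.

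The residual SD, the spread between arrays of 1 label pooled over the 3 labels, exceeded every difference between labels except that of SLA-DRA in mated against control arrays, where it was 0.375 (0.45 among the control arrays alone). Over the 24 arrays the highest and lowest linear signals of 1 gene lay between 2.46-fold apart (SLA-DOB) and 3.92-fold apart (SLA-DRB1). That spread was partly shared. After the group mean was removed, the 28 pairs of the 8 genes had correlations between -0.0256 and 0.840 over 24 arrays, with a median of 0.538. SLA-DRB1 and SLA-DOB were the least alike, and the 15 pairs that can be formed from the 6 genes other than SLA-DRB1 and SLA-DOB had correlations between 0.469 and 0.840, with a median of 0.693, a subset formed after the values were seen. These correlations are descriptions, because the arrays share sows and each pair of values shares an array.

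Mated replicate 3 was the class II high array of the series. The mean log2 signal of the 8 genes was 7.84 there, in a mated group of 6.73 to 7.84 (median 7.11), against 6.61 to 7.26 in the SP-infused group (median 6.96) and 6.48 to 7.29 in the control group (median 7.11). It was above its group's mean for 8 of 8 genes, the highest mated array for 7 and the highest of the 24 for 6. Without it the median log2 difference of the 8 genes was 0.083 in mated against control arrays and 0.106 in mated against SP-infused arrays. At the low end, control replicate 4 averaged 6.48 and was the lowest of all arrays for 3 genes. SP-infused replicate 2 and mated replicate 6 were above their group's mean for 0 of 8 genes, whereas SP-infused replicate 8 and control replicate 3 were above it for 8 of 8. By array mean, the 3 labels overlapped over most of their ranges, and mated replicate 3 lay above every array of the other labels.

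**Figure D3:**
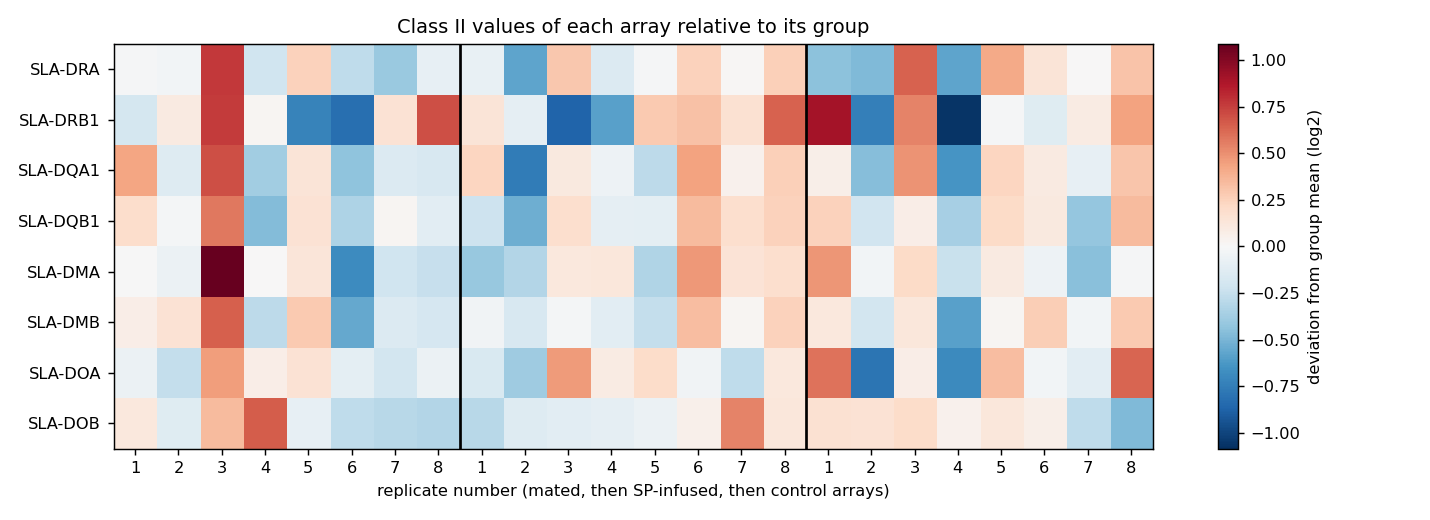
Deviation of each array (columns, ordered by label as mated, SP-infused and control) from the mean of its label, in log2 units on the colour scale, for the 8 class II genes (rows). Columns tend to be of 1 colour: mated replicate 3 and control replicate 3 were above their group's mean for 8 of 8 genes, and mated replicate 6 and SP-infused replicate 2 for 0 of 8.

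How tightly the chains of 1 heterodimer varied together differed from molecule to molecule. SLA-DQA1 and SLA-DQB1 had r = 0.84 over 24 arrays after the group means were removed (rho 0.80), and r was 0.94 within the mated, 0.82 within the SP-infused and 0.74 within the control label. SLA-DMA and SLA-DMB had r = 0.75 (rho 0.65), which was 0.65 without mated replicate 3 and within the labels 0.90 (mated), 0.78 (SP-infused) and 0.40 (control). The chains of DR had r = 0.36 (rho 0.33), and 0.33 (mated), 0.12 (SP-infused) and 0.49 (control) within the labels. Those of DO had r = -0.03 (rho 0.16), a pooled value over labels that differed in sign, with 0.59 (mated), -0.22 (SP-infused) and -0.31 (control), each over 8 arrays. SLA-DRA instead varied with the alpha chain of DQ, at r = 0.84 with SLA-DQA1, and this held within each label, at 0.83 for the mated, 0.84 for the SP-infused and 0.88 for the control label. SLA-DOB had a median r of 0.142 with the other genes, and its highest was 0.546 with SLA-DMA. The DO probe sets averaged 5.20 (SLA-DOA) and 5.07 (SLA-DOB), close to the mean of 5 under which a probe set was counted as dim, and SLA-DRB1 is the gene with the 6 low arrays.

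**Figure D4:**
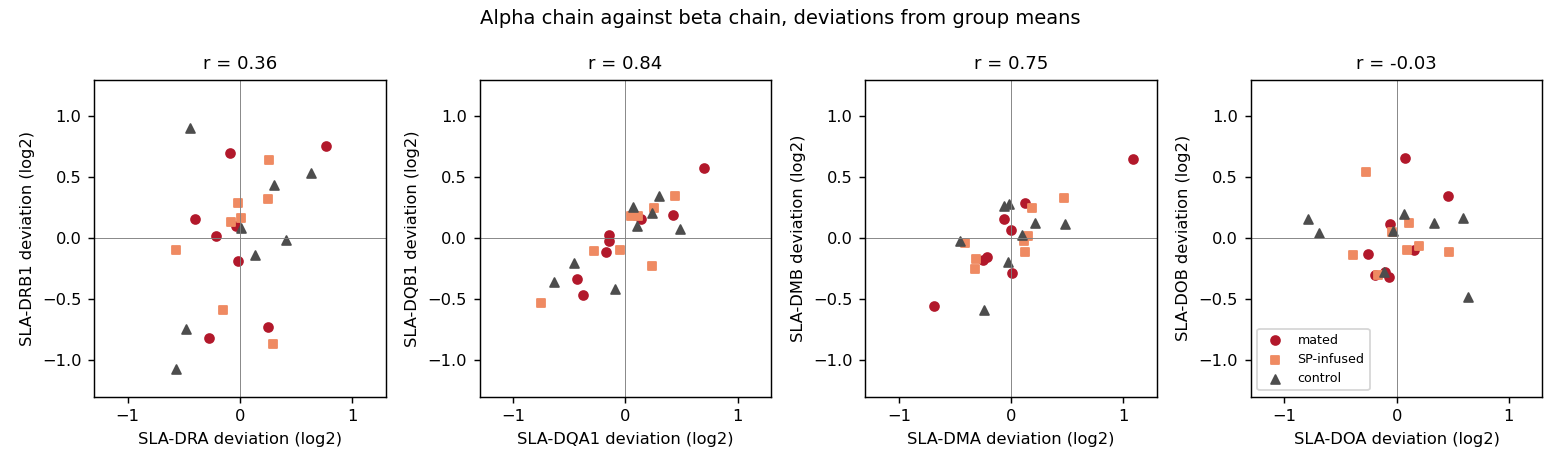
Deviation of the beta chain (vertical axis) against that of the alpha chain (horizontal axis) from the group mean, in log2 units, for DR, DQ, DM and DO; each point is 1 of 24 arrays, coloured by label. The DQ points lie along a line (r = 0.84), the DM points less so (r = 0.75), the DR points are scattered (r = 0.36) and the DO points, pooled over labels that differ in sign, have r = -0.03.

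Ranked by r with SLA-DRA over the 24 group-centred arrays, the most alike of the other 12364 genes were as follows, given without a test of any theme. JAK3, the kinase of the common gamma chain cytokine receptors, came first at r = 0.847 (rho 0.82), and SLA-DQA1 second at 0.840. The JAK3 probe set was dim, with a mean of 4.99. INPP5D, a phosphatase of blood cells, followed at 0.802, EVI2B, a leukocyte membrane protein, at 0.791, MPEG1, the macrophage perforin, at 0.779, and C1QB, a complement chain made by macrophages, at 0.773. CNDP2, a dipeptidase found in many tissues, had 0.756, SLA-DMB 0.734 (rank 8) and TRAF7, a ubiquitin ligase, 0.731. The last 3 of the 10 genes outside the class II list were CD247, the zeta chain of the T cell receptor, at 0.730, CD3E, another chain of that receptor complex, at 0.725, and the RNA sensor TLR7 at 0.725. With mated replicate 3 and control replicate 3 left out, r was 0.783 for JAK3, 0.792 for EVI2B, 0.781 for MPEG1, 0.739 for C1QB and between 0.572 (TLR7) and 0.668 (TRAF7) for the other 6 genes outside the class II list. SLA-DQB1 ranked 31, SLA-DOA 136, SLA-DMA 239, SLA-DRB1 1399 and SLA-DOB 3412.

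Lists of cell type markers varied with the mean of the 8 class II genes to different degrees over the 24 group-centred arrays. The T and NK cell list (16 of 18 genes measured, 5 of them dim) had r = 0.89 (rho 0.85), which was 0.82 without mated replicate 3 and control replicate 4. Its mean log2 signal lay between 5.09 and 6.06 in the mated group, 5.20 and 5.64 in the SP-infused group and 5.08 and 5.89 in the control group. The macrophage list (12 of 14 measured, 3 of them dim) had rho 0.81, and r was 0.73 without those 2 arrays. Its means lay between 6.07 and 7.05 in the mated group, 5.98 and 6.69 in the SP-infused group and 6.14 and 6.97 in the control group. The smooth muscle list (5 of 8 measured) ran the other way, at r = -0.45 (rho -0.57), and the epithelial list (7 of 11 measured) had r = 0.26. The part of cell composition in the class II values was not tested.

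The dendritic cell list had 7 of 15 genes measured, 2 of them dim, with r = 0.52. Its defining markers CLEC9A, BATF3, ZBTB46 and ITGAX had no probe set of their own. The B and plasma cell list had 6 of 13 measured, 4 of them dim, with r = 0.67 and 0.45 without mated replicate 3 and control replicate 4. MS4A1, CR2, CD22 and BLK had no probe set of their own. Mated replicate 3 had a B and plasma cell mean of 7.21, against 5.90 or lower in the other mated arrays, and a T and NK cell mean of 6.06, against 5.59 or lower. In that array CD79A, a chain of the B cell receptor complex, was at 6.88, JCHAIN, which joins IgA and IgM, at 12.50 and TNFRSF17, a plasma cell receptor, at 7.67. The bearing of these cells on its class II values was not tested.

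**Figure D5:**
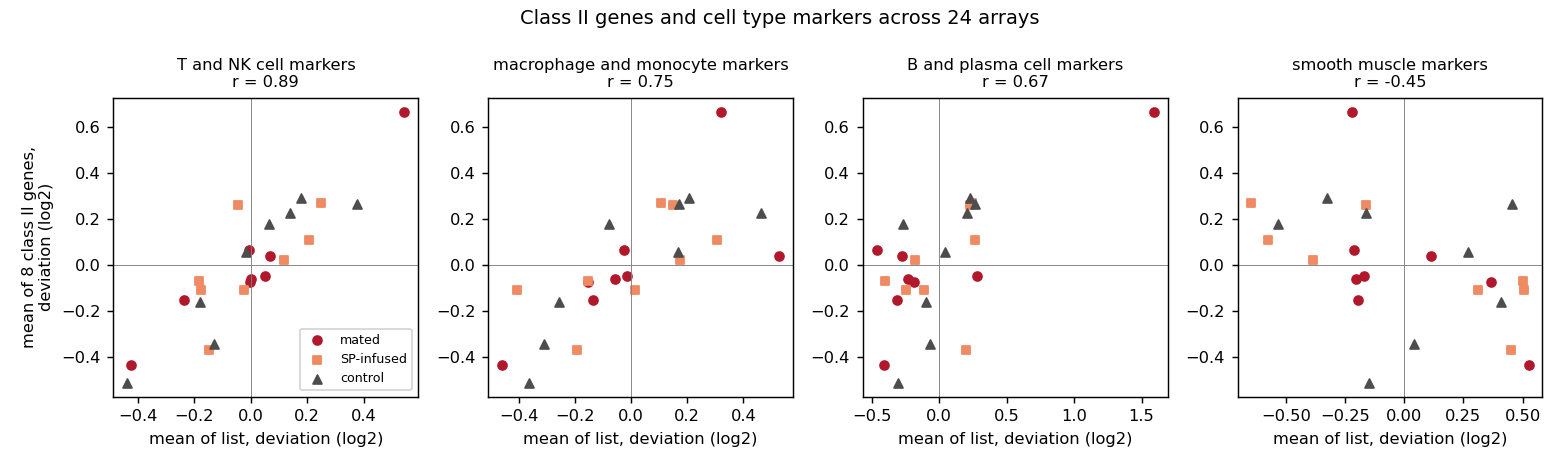
Mean of the 8 class II genes (vertical axis) against the mean of a marker list (horizontal axis), both as deviations from the group mean in log2 units, for T and NK cells, macrophages, B and plasma cells and smooth muscle; each point is 1 of 24 arrays, coloured by label. The relation is closest for T and NK cells (r = 0.89) and inverse for smooth muscle (r = -0.45).

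Between the groups these leukocyte lists had small medians. In mated against control arrays the median log2 difference was -0.002 for T and NK cells, -0.016 for macrophages and 0.090 for B and plasma cells. In SP-infused against control arrays it was -0.137 for T and NK cells, with 15 of 16 genes lower, and -0.104 for macrophages, with 12 of 12 lower, and none of these genes reached an unadjusted limma p under 0.05. In that comparison 5.15% of all probe sets reached that level. Of all probe sets 39.2% were higher there, so most were lower. The members of a list vary together between arrays. In mated against SP-infused arrays, where the class II median was 0.20, it was 0.116 for T and NK cells and 0.189 for macrophages. The class II median of 0.176 in mated against control arrays stood beside leukocyte medians near 0 for T and NK cells and macrophages. The smooth muscle list also had a median near 0 there, at 0.006, whereas the endothelial and epithelial medians were larger in size. The endothelial list (6 of 11 measured) had a median of 0.353 there, with 6 of 6 higher and r = -0.15 with the class II genes, and PECAM1 (0.41, adjusted p = 0.348) and TEK (0.42, adjusted p = 0.348), an adhesion molecule and a receptor of vessels, were under an unadjusted p of 0.05. The epithelial list had a median of -0.272, with 6 of 7 lower, and EPCAM (-0.41, adjusted p = 0.424) was under that level, as were 11.4% of all probe sets. OVGP1 was the exception in sign, higher by 1.57 (SE 1.03, adjusted p = 0.566). Of all probe sets 38.9% were higher in mated against control arrays, so most were lower. The part of these tissue markers in the class II values was not tested.

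The genes that act with class II molecules gave no change that passed the adjusted test either. Of the transcription factors and interferon gamma pathway genes that drive class II transcription, 11 of 15 were measured. Their medians were -0.010 in mated and -0.028 in SP-infused against control arrays. In these comparisons 0 of 11 reached an unadjusted limma p under 0.05, against 11.4% and 5.15% of all probe sets. JAK2, a kinase of the interferon gamma receptor, had the lowest p of the list, with log2 differences of -0.01 in mated and -0.31 in SP-infused against control arrays (adjusted p = 0.986 and 0.891). NFYC, a subunit of the NF-Y factor of class II promoters, differed by 0.12 in both (adjusted p = 0.543 and 0.891). Named for their role and not by rank, RFX5, which binds class II promoters, differed by -0.04 in mated and -0.11 in SP-infused against control arrays, and the interferon-induced factor IRF1 by -0.16 and -0.11. IFNG itself averaged 2.49, among the dim signals, and RFXANK and RFXAP had no probe set of their own. This list, with 2 of the 11 measured genes dim, had r = 0.49 with the class II genes (rho 0.40). That r was 0.31 without mated replicate 3 and control replicate 4.

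Endosomal genes, which cut the invariant chain and antigen, had 12 of 15 members measured and medians of 0.018 in mated and -0.028 in SP-infused against control arrays. NAPSA, an aspartic protease, had the one unadjusted call of the list, a log2 difference of -0.28 in mated against control arrays (SE 0.11, adjusted p = 0.376), opposite in sign to the class II median. Of all probe sets, 11.4% had an unadjusted call in that comparison. CTSH, a cathepsin, differed by 0.02 in mated and -0.17 in SP-infused against control arrays. Also named for their role, CTSS, the cathepsin that trims the invariant chain, differed by 0.20 in mated and -0.01 in SP-infused against control arrays, and IFI30, a thiol reductase of the same compartment, by 0.13 and 0.03.

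The co-stimulation and T cell partner list had 10 of 13 members measured, 5 of them dim. It followed the class II genes between arrays at r = 0.71 (rho 0.68), and at 0.64 without mated replicate 3 and control replicate 4. Its median was 0.036 in mated and -0.110 in SP-infused against control arrays. CD4, the co-receptor that binds class II, had a dim mean of 3.99 and differed by -0.20 in mated against control arrays (adjusted p = 0.426). It was the only unadjusted call of the list there, where 11.4% of all probe sets had such a call. In mated against SP-infused arrays the only such call was CD80, also dim, at 0.51 (adjusted p = 0.998), against 3.34% of all probe sets. CD58, an adhesion ligand of T cells, differed by 0.23 in mated against control arrays (adjusted p = 0.486).

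The class I presentation list, whose molecules show internal peptides to CD8+ T cells, had 10 of 14 members measured. It had r = 0.67 with the class II genes, and 0.55 without mated replicate 3 and control replicate 4. Its medians were 0.203 in mated and 0.099 in SP-infused against control arrays. SLA-3 differed by 0.38 in mated and 0.37 in SP-infused against control arrays and TAPBP, the loading chaperone, by 0.18 and 0.31. Both SLA-5, at -0.50, and SLA-6, at -0.27, had the opposite sign in mated against control arrays, and SLA-5 was the one unadjusted call of this list (adjusted p = 0.414 for SLA-5 and 0.543 for SLA-6). The share called at that level over all probe sets was 11.4%.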

How the data were processed

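The deposited values are log2 signals that the authors made with RMA in the oligo package (background adjustment, quantile normalization between arrays and 1 summary per probe set), versions and genome build not given in the sources used here. Such normalization draws the arrays towards 1 distribution and can hide a shift of the whole transcriptome, but the deposited arrays still differed, with medians of 5.75 to 5.99 and SDs of 1.91 to 2.14. The number of arrays limits the precision.

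Symbols came from the platform annotation: 13327 probe sets had 1 symbol, 357 several and 13874 none. For genes with more than 1 such probe set, that of the highest mean over 24 arrays was used. All 27558 probe sets were fitted in limma 3.58.1 (R 4.3.3) with the 3 labels as groups and empirical Bayes variances, with Benjamini-Hochberg adjustment over all of them and a threshold of 0.05. After the main fit, the same model was run on data simulated with independent arrays, which leaves the sharing of sows unchecked.

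The genes named were all class II genes, the 10 most like SLA-DRA and defining markers. Of the transcription factor, endosomal, co-stimulation and class I lists, 2 to 4 genes with the lowest unadjusted p against control were named. Genes named for their role are marked. That rule was not used for the cell type lists, where genes were named for an unadjusted call, an opposite sign or their value in mated replicate 3. Class II genes, lists and tests were chosen with earlier results of these data known. Correlations used values minus the group mean. Alternatives were equal array medians, quantile and cyclic loess scaling, array weights, the replicate block, pairwise fits, a trended robust variance prior, leaving out dim probe sets (mean below 5) and leaving out each array in turn.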

Additional observations from a re-analysis of the deposited data

Results flagged for a closer look

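The 8 class II genes were examined in the 3 groups of 8 arrays, 24 combinations, for an extreme array whose gap to its nearest neighbour took a larger share of the group's whole range than Dixon's 95% critical value allows, which chance passes in about 1 of 20 groups. A single combination passed: SLA-DMA in the mated group, where the highest array, replicate 3 at 7.36, had a gap of 0.541 of the range. The same array was the highest mated array for 7 of the 8 genes.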

How the results depend on the processing

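Precision here is set by the number of arrays and the unknown sharing of sows. No gene of the 8 passed the adjusted threshold under any alternative, the lowest adjusted limma p being 0.259. In mated against control arrays the number of genes under an unadjusted p of 0.05 was 1 (SLA-DRA) under each of the 8 alternatives that kept all arrays and 0 to 1 when each array was left out in turn. As deposited, 11.4% of all probe sets were under that level, so 1 gene of 8 is near the share over all probe sets. The exact permutation test of SLA-DRA, added after seeing the data, gave p = 0.0695. The SLA-DRA difference was 0.30 to 0.50 when each array was left out. In mated against SP-infused arrays the number of genes under an unadjusted p of 0.05 was 0, against 3.34% of all probe sets as deposited. It was 0 to 1 on leaving out arrays (SLA-DMA without mated replicate 6, SLA-DOB without SP-infused replicate 7).

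The median of the 8 genes on leaving out each array was 0.083 to 0.234 in mated against control, -0.0943 to 0.0306 in SP-infused against control and 0.106 to 0.258 in mated against SP-infused arrays. The median residual SD of 0.373 was 0.313 to 0.381. Signs turned in 4 of 192 values with all arrays kept. Pairwise fits, leaving out dim probe sets, the variance prior and the balanced replicate block leave each log2 difference unchanged. Their share of the 192 values could not turn. With array weights SLA-DRB1 was at 0.0581 in mated and 0.0959 in SP-infused against control arrays, and with equal array medians SLA-DQB1 was at 0.0187 and SLA-DMB at 0.0190 in SP-infused against control arrays. On leaving out each array SLA-DRB1 ranged from -0.276 to 0.00522 in mated against control, from -0.245 to 0.0371 in SP-infused against control and from -0.156 to 0.0856 in mated against SP-infused arrays. In SP-infused against control arrays SLA-DQA1 ranged from -0.147 to 0.0523, SLA-DQB1 from -0.0754 to 0.0600, SLA-DMB from -0.0996 to 0.025 and SLA-DOA from -0.0677 to 0.136. The cause was not tested. Averaging all probe sets of a gene gave no other value, since each class II gene had 1.

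Replicate numbers did not pair arrays across labels: same-number deviations correlated between -0.306 and 0.502 in mated against control arrays, with 4 of 8 pairs over 0.1. With the replicate block the SLA-DRA difference in mated against control arrays was 0.41 (limma, adjusted p = 0.353), and the number of genes called was 1 as without the block.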
